A study of Mus musculus with 9 samples.

Results

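Endothelial cells (ECs) of mouse lungs that carried breast cancer metastases under anti-VEGF treatment were compared with ECs of healthy lungs, a comparison that describes which endothelial gene expression differs from healthy lung while VEGF-A is blocked. It covers 6 of the 9 arrays of the series, chosen by their labels. The mice were NSG mice (NOD/SCID mice without the common cytokine receptor gamma chain, which lack T, B and NK cells), aged 6 to 8 weeks. The 3 anti-VEGF arrays came from mice that received MDA-MB-231-LM2 cells through the tail vein, a lung-homing derivative of a human breast cancer cell line, and the anti-VEGFA antibody B20.4.1.1 at 10 mg/kg, given 2 times per week by intraperitoneal injection. Their lungs were taken on day 21. The 3 healthy arrays came from age-matched mice without cancer cells that were given control IgG. The other 3 arrays came from metastatic mice given control IgG and are used here only as a reference for the anti-VEGF group. ECs were sorted from whole lungs by CD31, with exclusion of cells that carried GFP, CD326, CD45, CD11b or CD140a/b, so that they include ECs from outside the nodules, and metastatic mice were chosen for comparable load by bioluminescence. The series holds no healthy mice on anti-VEGF, so in this comparison metastasis and antibody differ together and cannot be told apart. Each group has 3 biological replicates.

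VEGF-A is the main growth factor for ECs. It binds VEGFR2 (Kdr) on their surface and drives division, sprouting and permeability, and antibodies that capture it are used to stop vessel growth in tumors. Lung capillaries line the alveoli, and their ECs also respond to signals other than VEGF, among them interferons, which switch on antiviral genes, and inflammatory cytokines, which induce adhesion molecules and chemokines. Levels below are log2 values of the arrays. A difference of 1 is a doubling, and errors are standard errors of the difference between 2 groups of 3 arrays unless given otherwise.

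Arrays of 1 group correlated with r of 0.991 to 0.994 over the 18193 genes tested, against 0.980 to 0.986 between the healthy and the anti-VEGF arrays, and no array stood apart from its group. The mean level of 23 pan-endothelial markers was 12.53 to 12.56 in the healthy arrays and 12.54 to 12.56 in the anti-VEGF arrays, with a median difference of -0.02, and Pecam1, which encodes CD31, differed by 0.03 ± 0.08. Of these markers Emcn (endomucin) was called higher (0.50 ± 0.09) and Eng (endoglin) lower (-0.38 ± 0.08), and the other 21 were not called. The Emcn call was lost without healthy replicate 2, healthy replicate 3 or anti-VEGF replicate 3, and the Eng call without any 1 array but anti-VEGF replicate 1. Of the genes for the proteins sorted against, Pdgfrb (CD140b) was called higher (1.15 ± 0.22, limma adjusted p = 0.0206). Epcam (CD326) differed by -0.04 ± 0.08 and Pdgfra (CD140a) by -0.46 ± 0.30, and neither was called. Ptprc (CD45) lay at 8.24, 8.82 and 9.24 in the healthy arrays and at 9.35 to 9.51 in the anti-VEGF arrays, a difference of 0.64 ± 0.22 that was not called (limma adjusted p = 0.13), and Itgam (CD11b) differed by 0.33 ± 0.18, also not called. Of 24 macrophage and monocyte markers, 15 were nevertheless called higher and none lower (below).

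In the comparison of anti-VEGF metastasis with healthy lung, limma called 1172 of 18193 genes at a Benjamini-Hochberg adjusted p under 0.05, or 6.44%. Of these, 755 (4.15%) were higher and 417 (2.29%) were lower under anti-VEGF metastasis. These 2 shares are the reference for all counts of list members below. At an unadjusted p under 0.05 there were 3850 genes. The higher genes moved further than the lower: 179 of them exceeded a doubling and 27 a 4-fold difference, while 30 lower genes fell by more than a halving and 0 by 4-fold. The median over the called genes was 0.64 for those higher and -0.53 for those lower. In 4901 genes (26.9%), all 1172 called among them, every array of one group lay above every array of the other. Leaving out 1 array reduced the number of calls to between 645 (without healthy replicate 2) and 770 (without healthy replicate 1) for 5 of the 6 arrays, and left 1139 without anti-VEGF replicate 1.

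Among probe sets that name 1 gene, the largest difference was in Mycn, a transcription factor of the Myc family that drives cell growth. Its levels were 7.55, 7.23 and 7.56 in healthy ECs and 11.54, 12.05 and 11.68 under anti-VEGF metastasis, a difference of 4.31 ± 0.15 (19.9-fold, adjusted p = 7.2e-06). Other probe sets of Mycn gave 0.17 to 1.05, so the size of its change rests on 1 probe set. Myc itself, on the same pathway, rose from 8.30 to 8.48 in healthy arrays to 10.24 to 10.68, a difference of 2.09 ± 0.12, and the other 9 measured members of the Myc and Max network were not called.

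Ifi202b, an interferon-inducible DNA-binding protein, lay at 8.64, 8.38 and 8.21 in healthy ECs and at 11.37, 11.80 and 12.03 under anti-VEGF metastasis (3.32 ± 0.17). Clca3a1, a secreted protein of the chloride channel accessory family found on some lung vessels, lay at 8.32, 8.38 and 8.22 and at 11.40, 11.42 and 11.53 (3.14 ± 0.08). Both genes had a gap of more than 2 log2 units between the highest healthy and the lowest anti-VEGF array. Tgfbi, a TGF-beta-induced matrix protein, lay at 8.44, 8.97 and 8.83 against 11.47, 11.75 and 11.51 (2.83 ± 0.14, with other probe sets at 0.60 to 2.51). Vwa1, a matrix protein that binds perlecan, lay at 8.15, 7.88 and 8.13 against 10.27, 11.05 and 11.08 (2.74 ± 0.21). Akr1b8, an aldo-keto reductase, lay at 7.67, 7.40 and 7.42 against 9.79, 10.24 and 10.03 (2.53 ± 0.13). In all of these, as in every gene called higher, every anti-VEGF array was above every healthy array. The metastasis IgG arrays lay at levels near those of the anti-VEGF arrays, as the plot of single arrays shows.

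**Figure D1:**
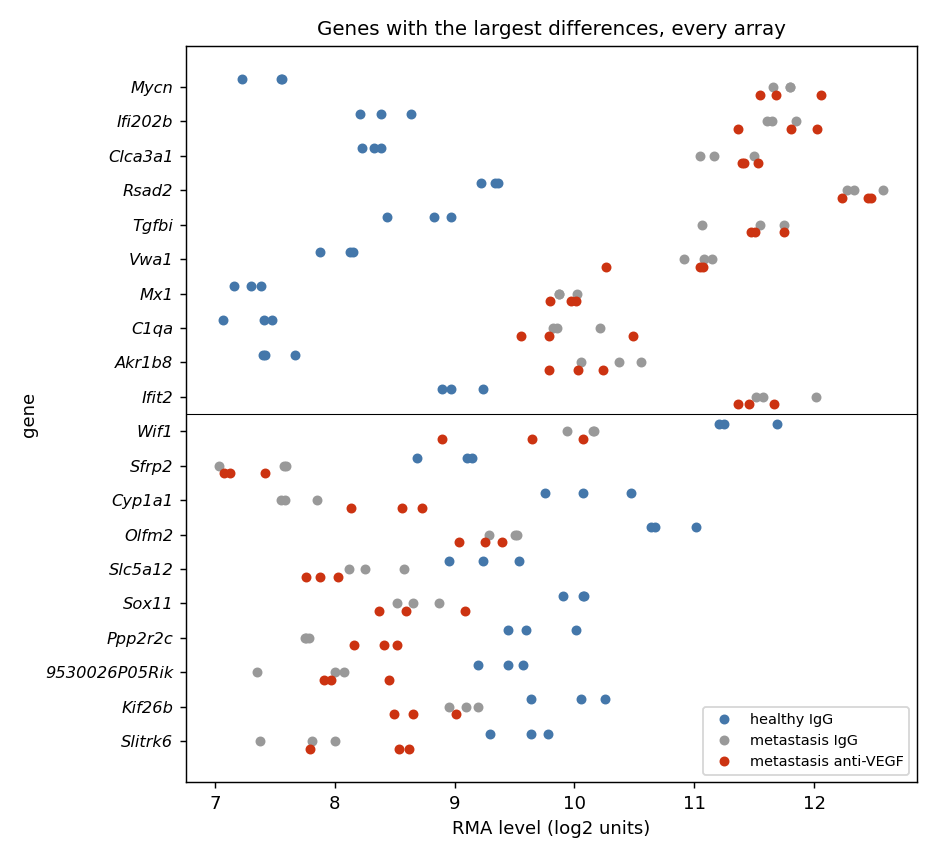
RMA level (log2 units, x axis) of the 20 called genes that differed most between metastasis anti-VEGF and healthy IgG, 10 in each direction, 1 point per array. Blue and red points do not overlap for any of the 20 genes, which is how they were chosen. Mycn shows the widest gap (4.31), and Cyp1a1 is lower in the metastasis IgG arrays (gray) than under anti-VEGF.

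Genes of the interferon response rose together. Of 35 type I interferon effectors, 26 were called higher and none lower, against 4.15% of all genes called higher, and the median difference was 0.90, against -0.01 over all genes. Between 24 and 26 members were called when any 1 array was left out. The mean level of the list was 10.03 to 10.17 in the healthy arrays and 11.12 to 11.15 in the anti-VEGF arrays, which left no overlap. Rsad2 (viperin), which blocks viral replication, lay at 9.22, 9.36 and 9.34 in healthy ECs and at 12.23, 12.45 and 12.47 under anti-VEGF metastasis (3.08 ± 0.09, adjusted p = 4.04e-06). Mx1, a GTPase that traps viral components, lay at 7.30, 7.16 and 7.38 against 9.79, 9.97 and 10.01 (2.65 ± 0.10). Ifit2, which binds viral RNA, lay at 9.24, 8.97 and 8.89 against 11.46, 11.37 and 11.67 (2.46 ± 0.12). Usp18, which removes ISG15 from proteins and dampens the interferon receptor, lay at 9.60, 9.34 and 9.64 against 11.51, 11.55 and 11.56 (2.01 ± 0.10). These anti-VEGF arrays were tight and far from the healthy ones. At the other end of the list Ifi44l (-0.03), Trim25 (0.13) and Ifitm3 (0.24) were not called.

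The promoters of these genes are shown because part of the list holds a short element that interferon-activated factors recognize. The core of the interferon-stimulated response element was searched as GAAANNGAAA on both strands in RefSeq promoter windows (build GRCm38.p6, 250 bases before to 50 after the start), where a match may overlap another. Of the 26 called effectors, 18 had a window and 9 of these held the core, against 3.63% of the 14452 tested genes with a window and 3.44% of all 32851 windows. Over the list whether called or not, 11 of 25 held it (44.0%). The 4 called effectors of largest difference with a match before the start are given from 5′ to 3′ on the gene's strand, with the core, or its reverse complement, in capitals. They lie at chr12:26456533-26456602 (Rsad2, minus strand), chr19:34640755-34640843 (Ifit1, plus strand), chr5:120907526-120907575 (Oas1a, minus strand) and chr19:34583343-34583446 (Ifit3, plus strand).
Rsad2: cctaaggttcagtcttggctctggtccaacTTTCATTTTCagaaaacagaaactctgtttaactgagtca
Ifit1: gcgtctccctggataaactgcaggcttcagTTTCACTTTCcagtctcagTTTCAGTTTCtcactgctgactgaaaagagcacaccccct
Oas1a: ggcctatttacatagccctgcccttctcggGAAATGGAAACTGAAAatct
Ifit3: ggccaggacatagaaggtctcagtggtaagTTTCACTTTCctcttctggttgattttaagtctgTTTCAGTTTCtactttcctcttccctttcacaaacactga
Ifit1, Oas1a and Ifit3 held 2 matches before the start and Rsad2 held 1. Ifit1 rose by 2.005, Oas1a by 1.87 and Ifit3 by 1.80 on the log2 scale.

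All 9 measured guanylate-binding proteins and immunity-related GTPases, which attack vacuoles of intracellular microbes, were called higher, with differences from 0.41 to 0.85 and a median of 0.67. Irgm2 lay at 10.51, 10.57 and 10.45 in healthy ECs and at 11.28, 11.34 and 11.42 under anti-VEGF metastasis (0.84 ± 0.08). Igtp lay at 11.13, 11.04 and 11.19 against 11.92, 11.80 and 11.71 (0.69 ± 0.09). The changes were thus smaller than those of the antiviral effectors. The arrays did not overlap in any member, which holds for every called gene and for 26.9% of all genes. Between 7 and 9 members were called with any 1 array left out. A promoter window was available for 6 of the 9, and all 6 held the interferon-stimulated response element core. The stretches of Irgm2 (chr11:58214883-58214952, plus strand) and Igtp (chr11:58199492-58199555, plus strand) are nearly the same sequence, which shows that these neighboring family members are not independent observations, and that of Gbp3 (chr3:142559969-142560043, plus strand) differs.
Irgm2: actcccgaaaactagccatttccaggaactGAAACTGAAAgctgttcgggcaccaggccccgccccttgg
Igtp: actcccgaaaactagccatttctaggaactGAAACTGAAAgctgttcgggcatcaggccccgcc
Gbp3: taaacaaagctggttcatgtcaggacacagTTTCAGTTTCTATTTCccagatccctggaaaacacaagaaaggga

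Among regulators of this response 3 of 18 were called, all higher. Irf7, the factor that amplifies interferon production, lay at 9.52, 9.34 and 9.40 in healthy ECs and at 11.44, 11.61 and 11.53 under anti-VEGF metastasis (2.11 ± 0.09). Irf9 and Stat2, transcription factors of the interferon response, each differed by 0.55. The regulators therefore changed less than the effectors, with Irf7 as the exception. Of 11 genes for cytosolic DNA sensing and the Ifi200 family, 6 were called higher, among them Sting1, the adaptor of cytosolic DNA sensing, at 8.60, 8.47 and 8.58 against 9.90, 10.35 and 10.28 (1.63 ± 0.12), and Zbp1, a sensor of left-handed nucleic acids, at 8.64, 8.73 and 8.58 against 9.72, 9.75 and 9.64 (1.06 ± 0.08).

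Genes of antigen presentation were higher in part, where 4.15% of all genes were called higher and 2.29% lower. Of 15 genes of MHC class I presentation, 5 were called higher and none lower, with a median difference of 0.18. Nlrc5, the transactivator of class I genes, lay at 9.28, 8.69 and 8.87 against 10.41, 10.21 and 10.59 (1.46 ± 0.16). The peptide transporter gene Tap2 differed by 0.52 ± 0.07 and the immunoproteasome subunit gene Psmb8 by 0.51 ± 0.08, with 0.05 at the other probe set of Psmb8. For Tap1 the difference of 0.65 ± 0.08 was not shared by its other probe sets (-0.07 to 0.08). Of 9 genes of MHC class II presentation, 6 were called higher with a median of 0.63. H2-Ab1 lay at 9.58, 9.50 and 9.82 against 10.44, 10.64 and 10.58 (0.92 ± 0.10), and Ctss, a lysosomal protease that also stands among the macrophage markers, at 9.82, 10.60 and 11.03 against 12.27, 12.40 and 11.88 (1.70 ± 0.28). The class II count was 3 without healthy replicate 1, healthy replicate 2 or anti-VEGF replicate 3, and 2 without anti-VEGF replicate 2, which also ended the call of Ctss.

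**Figure D2:**
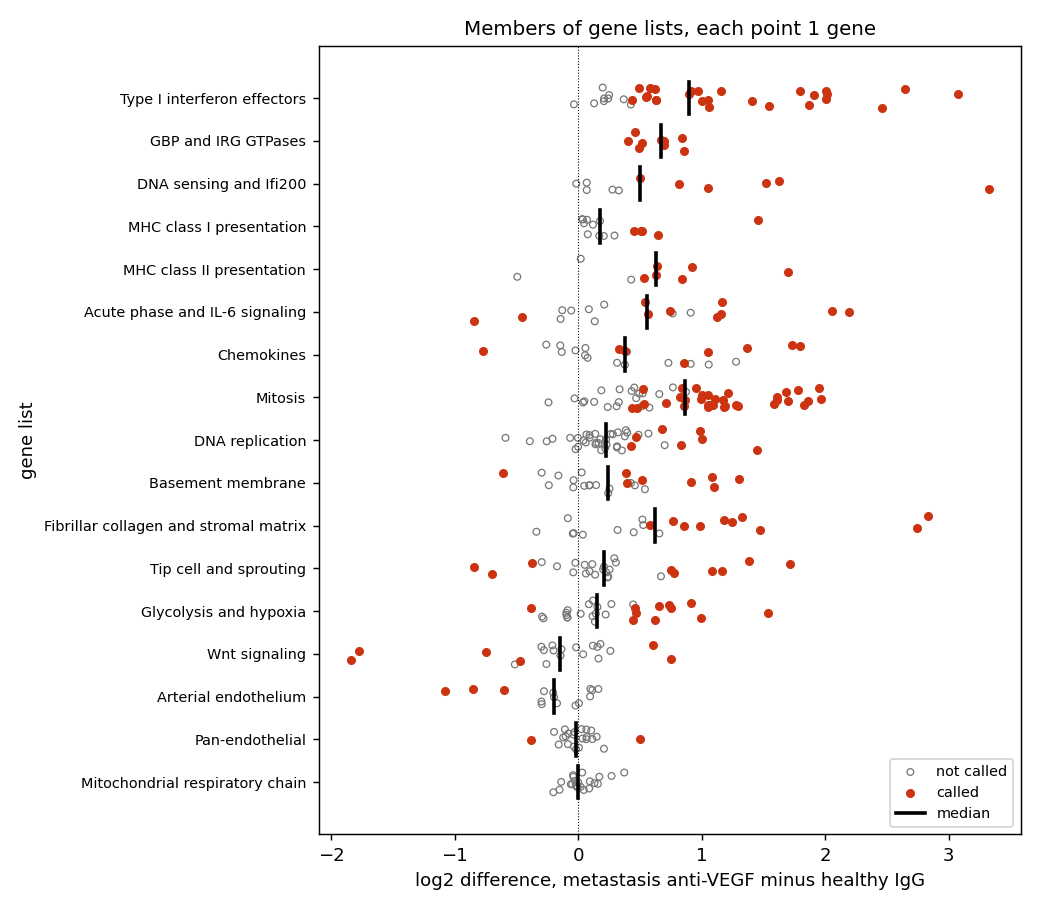
Log2 difference, metastasis anti-VEGF minus healthy IgG (x axis), of the measured members of 17 gene lists (y axis), 1 point per gene. Filled red points passed the test across all genes, open points did not, and black bars are list medians. The medians of the type I interferon effectors (0.90) and of the mitosis genes (0.86) lie to the right, while those of the pan-endothelial markers (-0.02) and of the respiratory chain (-0.00) lie at 0.

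Inflammatory genes were higher in part, where 4.15% of all genes were called higher and 2.29% lower. Of 18 genes of the acute phase and IL-6 signaling, 8 were called higher and 2 lower (median 0.55), although at most 1 lower call held when any 1 array was left out. Serpina3n, a secreted protease inhibitor of the acute phase, lay at 8.23, 7.84 and 8.08 in healthy ECs and at 10.23, 10.26 and 10.25 under anti-VEGF metastasis (2.20 ± 0.11). Lrg1, a glycoprotein that alters TGF-beta signaling in ECs, lay at 9.56, 9.62 and 9.61 against 11.59, 11.68 and 11.69 (2.05 ± 0.07, adjusted p = 7.2e-06). In both genes the arrays of a group differed little from each other. Of 22 chemokines and chemokine receptors of the scavenging type, 7 were called higher and 1 lower (median 0.38). Cxcl10, an interferon-induced attractant of T cells, lay at 8.65, 8.64 and 8.48 against 10.34, 10.30 and 10.53 (1.80 ± 0.09), and Cxcl1, an attractant of neutrophils, at 9.40, 9.72 and 9.77 against 10.57, 10.73 and 10.74 (1.05 ± 0.11). Ackr1, the venular chemokine receptor, lay at 9.26, 9.54 and 9.72 against 11.23, 11.51 and 10.98 (1.73 ± 0.16). For Cxcl9 the difference was 1.37 ± 0.15, with 0.15 at its other probe set. The chemokine count was 4 without healthy replicate 2, healthy replicate 3 or anti-VEGF replicate 2. Cx3cl1 (fractalkine), a chemokine anchored in the endothelial membrane, fell by 0.77 on the log2 scale, and Ccl2 (-0.14 ± 0.11) was not called.

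Complement factor B (Cfb), of the alternative pathway, lay at 9.13, 9.14 and 9.22 in healthy ECs and at 10.52, 10.67 and 10.63 under anti-VEGF metastasis (1.44 ± 0.08), and 5 of 13 complement genes were called higher and 1 lower. The complement count was 2 without healthy replicate 1, healthy replicate 2 or anti-VEGF replicate 3, and 3 without healthy replicate 3 or anti-VEGF replicate 1. Of 17 NF-kB subunits and targets 6 were called higher and none lower (median 0.27), with Bcl3 at 0.66 ± 0.09, Tnip1 at 0.62 ± 0.08 and Il1b at 1.24 ± 0.20. Among selectins and leukocyte adhesion molecules 3 of 15 were called, all higher. Selp (P-selectin), which slows leukocytes on activated venules, lay at 10.80, 10.75 and 10.74 against 11.54, 11.53 and 11.68 (0.82 ± 0.08), while Icam1 (0.03 ± 0.07), Sele (0.24 ± 0.15) and Vcam1 (-0.35 ± 0.23) were not called. The adhesion molecules that were not called were named after their values were seen, as the classic set of this process.

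The study chose 58 genes of secreted proteins (GSP58) and signatures of EC inflammation and EC proliferation for higher expression in ECs of metastatic lungs of this model, so their direction is not independent evidence here. Of 53 measured GSP58 members, 37 were called higher and none lower under anti-VEGF metastasis (median 0.97). C1qa, which also stands among the macrophage markers (below), is 1 of the GSP58 members called higher. Of 66 genes of the inflammation signature, 30 were called higher and none lower (median 0.36), and of 130 genes of the proliferation signature, 32 were called higher and none lower (median 0.21). The count for the proliferation signature was 18 without healthy replicate 2 or anti-VEGF replicate 2 and 21 without the third array of either group, whereas GSP58 gave 31 to 39 calls with any 1 array left out.

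The 4 niche factors of the study, secreted by ECs, were all called higher with and without each single array. Inhbb, a subunit of activin B, lay at 11.07, 10.92 and 11.12 in healthy ECs and at 12.65, 12.81 and 12.76 under anti-VEGF metastasis (1.71 ± 0.09, 3.27-fold, adjusted p = 3.04e-05). Scgb3a1, a secretoglobin, lay at 9.14, 9.64 and 10.12 against 10.98, 11.42 and 11.17 (1.56 ± 0.23), with the healthy arrays spread over almost 1 log2 unit. Tnfrsf11b (osteoprotegerin), a decoy receptor for RANKL and TRAIL, lay at 9.16, 9.16 and 9.10 against 10.39, 10.22 and 10.53 (1.24 ± 0.09). Lama1, a laminin chain of basement membranes, lay at 8.68, 8.41 and 8.50 against 9.55, 9.81 and 9.56 (1.10 ± 0.11). The same genes differed from the metastasis IgG arrays by 0.11 ± 0.10, -0.04 ± 0.12, -0.13 ± 0.10 and 0.16 ± 0.12 in that order, none of them called. The paper drew these genes from GSP58 members that were strongly induced and did not depend on VEGF. Neither their rise over healthy lung nor their small difference from IgG is therefore independent evidence here.

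Genes of the extracellular matrix were higher in a subset. Of 20 genes of fibrillar collagen and stromal matrix, 10 were called higher and none lower (median 0.62). Fn1 (fibronectin) lay at 9.58, 9.93 and 10.16 in healthy ECs and at 11.21, 11.56 and 11.31 under anti-VEGF metastasis (1.47 ± 0.15, with 0.27 at its other probe set). Tnc (tenascin C) differed by 1.18 and Col3a1 by 0.99 ± 0.15, at 11.33, 11.57 and 11.91 against 12.51, 12.50 and 12.77. Col1a1 lay at 8.76, 9.13 and 9.29 against 10.31, 10.27 and 10.58 (1.33 ± 0.15). The collagen genes are also markers of fibroblasts, of which 3 of 14 (Col1a1, Col1a2 and Col3a1) were higher and Inmt was lower, while the other 10 were not called and Dcn (-0.08) and Pdgfra (-0.46) were among these. In the basement membrane 7 of 23 genes were called higher and 1 lower (median 0.24). Col15a1 lay at 9.55, 9.62 and 9.75 against 10.66, 11.19 and 10.98 (1.30 ± 0.13), and Col18a1, the source of endostatin, at 8.99, 8.98 and 9.19 against 9.61, 10.02 and 10.26 (0.91 ± 0.16). Lama3 fell by 0.61 on the log2 scale, and the most abundant collagen IV genes Col4a1 (0.09) and Col4a2 (0.25) were not called. The basement membrane count was 4 without healthy replicate 1, healthy replicate 2 or anti-VEGF replicate 3, and 3 without anti-VEGF replicate 2. Col18a1 and Inmt were not called without healthy replicate 2 or anti-VEGF replicate 2.

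Of 21 matrix proteases and inhibitors 5 were called higher, among them Adamts4, which cuts proteoglycans, at 7.95, 7.72 and 7.80 against 9.57, 9.92 and 10.11 (2.05 ± 0.14), Mmp14, a membrane-bound collagenase (0.94 ± 0.12), and the inhibitor Timp1 (0.82 ± 0.10). That count was 3 without healthy replicate 1, healthy replicate 3 or anti-VEGF replicate 3. In TGF-beta and activin signaling 5 of 24 genes were called higher and 2 lower. Beside Inhbb, the latent TGF-beta binding proteins went in opposite directions: Ltbp2 lay at 7.82, 7.73 and 7.78 against 8.80, 8.89 and 8.91 (1.08 ± 0.08) and Ltbp4 at 11.22, 11.36 and 11.25 against 10.17, 10.59 and 10.50 (-0.85 ± 0.12). The count of higher genes was 3 without healthy replicate 1, healthy replicate 2 or anti-VEGF replicate 2.

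Cell division genes were also above healthy lung. Of 55 mitosis genes, 35 were called higher and none lower, with a median difference of 0.86 and 27 to 34 calls when 1 array was left out. Mki67, a marker of dividing cells, lay at 8.996, 8.38 and 9.15 in healthy ECs and at 10.73, 11.18 and 10.45 under anti-VEGF metastasis (1.95 ± 0.23, 3.86-fold, adjusted p = 0.00241). Melk, a kinase of dividing cells, lay at 8.31, 7.52 and 7.60 against 9.80, 9.63 and 9.89 (1.96 ± 0.20). Nuf2, a kinetochore protein, lay at 6.99, 6.70 and 6.85 against 8.35, 8.78 and 8.89 (1.83 ± 0.15). Bub1, a spindle checkpoint kinase, lay at 7.24, 6.70 and 6.72 against 8.67, 8.46 and 8.28 (1.58 ± 0.16, with -0.04 at its other probe set). No anti-VEGF array of these genes reached down to a healthy one, as in every gene called higher. Of 41 DNA replication genes 7 were called higher and none lower (median 0.23), a count that was 4 without healthy replicate 2, healthy replicate 3, anti-VEGF replicate 2 or anti-VEGF replicate 3. Among them Rrm2, a subunit of ribonucleotide reductase, lay at 9.13, 8.53 and 8.96 against 10.11, 10.61 and 10.24 (1.45 ± 0.18), Uhrf1, which maintains DNA methylation at replication forks, at 8.44, 8.46 and 8.33 against 9.20, 9.49 and 9.55 (1.00 ± 0.11) and the helicase subunit gene Mcm5 at 9.57, 9.25 and 9.47 against 10.17, 10.50 and 10.58 (0.98 ± 0.13, with 0.06 to 0.85 at other probe sets). Pcna (0.04) and Mcm3 (-0.25) were not called.

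The mitosis genes differed more from the metastasis IgG group than the interferon genes did in size, although no gene passed that test. The anti-VEGF and IgG groups of metastatic mice were set against each other in a fit of their own, and limma called 0 of 18193 genes (0.00%), with 1462 at an unadjusted p under 0.05 and a smallest adjusted p of 0.298. The count was also 0 in a fit of all 9 arrays and with each single array left out. Of the 55 mitosis genes, 53 were below the IgG arrays and 41 had an unadjusted p under 0.05, with a median difference of -0.50, and of the 41 DNA replication genes 37 were below and 22 had such a p (median -0.32). For the 35 type I interferon effectors the median was 0.00, 16 were below and 1 had such a p. Over all genes the median was -0.01, 9414 were below and 1462 had such a p. The IgG group's own median difference from healthy lung was 1.42 for mitosis, 0.52 for replication and 0.81 for interferon effectors, beside 0.86, 0.23 and 0.90 under anti-VEGF. These columns use the same healthy arrays, and the values are given side by side only.

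**Figure D3:**
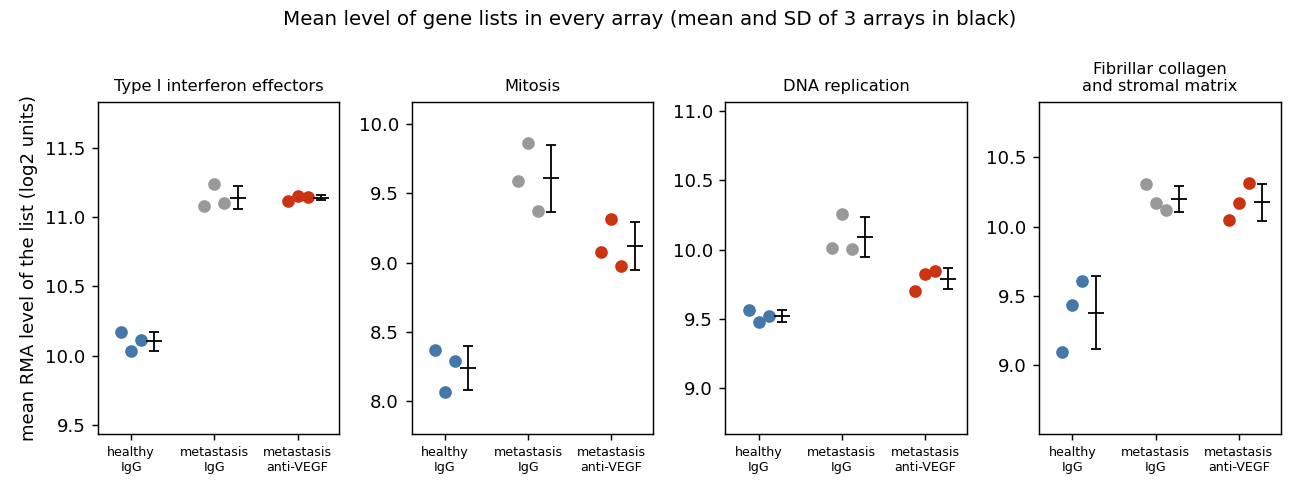
Mean RMA level (log2 units, y axis) of 4 gene lists in every array of the 3 groups, with the mean and SD of 3 arrays in black and the same span of axis in all panels. Interferon effectors lie at 11.12 to 11.15 under anti-VEGF, within the range of the metastasis IgG arrays, while the mitosis list lies between the healthy and the metastasis IgG arrays.

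Per array, the mean level of the mitosis genes was 8.06 to 8.37 in healthy ECs, 8.98 to 9.31 under anti-VEGF metastasis and 9.38 to 9.86 under IgG metastasis, so that the 3 groups did not overlap. For single mitosis genes given above, the anti-VEGF and IgG arrays did not overlap in Melk and Bub1 but did in Mki67 and Nuf2. Among DNA replication genes, Uhrf1 lay at 10.18, 10.53 and 10.00 in the IgG arrays (-0.82 ± 0.15 for anti-VEGF minus IgG, limma unadjusted p = 0.00047). Mcm5 lay at 10.99, 11.34 and 10.94 (-0.67 ± 0.14, limma unadjusted p = 0.00137). In both the anti-VEGF arrays lay between the other groups without overlap. Sgo2a, which protects cohesin at centromeres, had the smallest unadjusted p among genes below IgG: it lay at 6.77, 6.70 and 6.58 in healthy ECs, 7.58, 7.67 and 7.60 under anti-VEGF and 8.16, 8.19 and 8.30 under IgG (-0.60 ± 0.08, unadjusted p = 6.97e-05). Against healthy lung it was called higher (0.94 ± 0.08). Dtl, which directs degradation of licensing factors, lay at 7.73, 7.98 and 7.78, at 8.81, 9.06 and 8.86 and at 9.85, 9.93 and 9.50 in the same order, with -0.07 to 0.37 at other probe sets for the difference from healthy lung.

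Promoters of these genes are shown because most mitosis genes with a window hold an element to which regulators of the cell cycle bind. The cell cycle homology region TTTGAA, searched on both strands, was present in 35 of 48 mitosis genes with a window (72.9%) and in 23 of 32 that were called (71.9%), against 15.7% of the tested genes with a window and 17.9% of all windows. The E2F site, searched as TTTCGCGC or TTTGGCGC on both strands, was present in 11 of 34 DNA replication genes (32.4%) and in 3 of the 5 called ones with a window, against 1.45% of the tested genes and 0.813% of all windows. Capitals mark these elements or their reverse complements in Mki67 (chr7:135716442-135716525, minus strand), Cep55 (chr19:38054978-38055040, plus strand) and Cdk1 (chr10:69352913-69353013, minus strand), and E2F sites in the called replication genes Uhrf1 (chr17:56304098-56304165, plus strand), Mcm5 (chr8:75109326-75109397, plus strand) and Rfc3 (chr5:151651209-151651248, minus strand). Rfc3 was called in 2 of the 6 fits without 1 array. In Mcm5 both E2F forms overlap on opposite strands.
Mki67: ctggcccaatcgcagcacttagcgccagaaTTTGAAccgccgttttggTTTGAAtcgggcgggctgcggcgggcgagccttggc
Cep55: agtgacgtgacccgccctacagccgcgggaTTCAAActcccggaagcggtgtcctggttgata
Cdk1: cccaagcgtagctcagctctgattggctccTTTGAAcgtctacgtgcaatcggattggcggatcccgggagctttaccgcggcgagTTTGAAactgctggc
Uhrf1: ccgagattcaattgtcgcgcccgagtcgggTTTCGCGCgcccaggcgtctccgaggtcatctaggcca
Mcm5: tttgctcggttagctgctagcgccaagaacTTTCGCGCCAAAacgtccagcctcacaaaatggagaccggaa
Rfc3: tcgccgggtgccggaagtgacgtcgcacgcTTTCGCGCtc
A match describes letters in these windows and not binding of a factor in these cells.

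Inhibitors and drivers of the cell cycle were called in part. Of 26 cyclins, CDK inhibitors and E2F genes, 4 were called higher (15.4%) and 2 lower (7.69%), against 4.15% and 2.29% of all genes. Ccne1, a cyclin of the G1-to-S transition, lay at 8.62, 8.72 and 8.78 in healthy ECs and at 9.32, 9.20 and 9.35 under anti-VEGF metastasis (0.58 ± 0.08, with 0.06 at its other probe set). The inhibitors Cdkn2b (10.82, 10.78 and 10.84 against 9.99, 9.45 and 9.86, a difference of -1.04 ± 0.14) and Cdkn1c (-0.76 ± 0.11) were lower. The count of higher genes was 2 without healthy replicate 1 and 1 without healthy replicate 2, healthy replicate 3, anti-VEGF replicate 2 or anti-VEGF replicate 3.

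**Figure D4:**
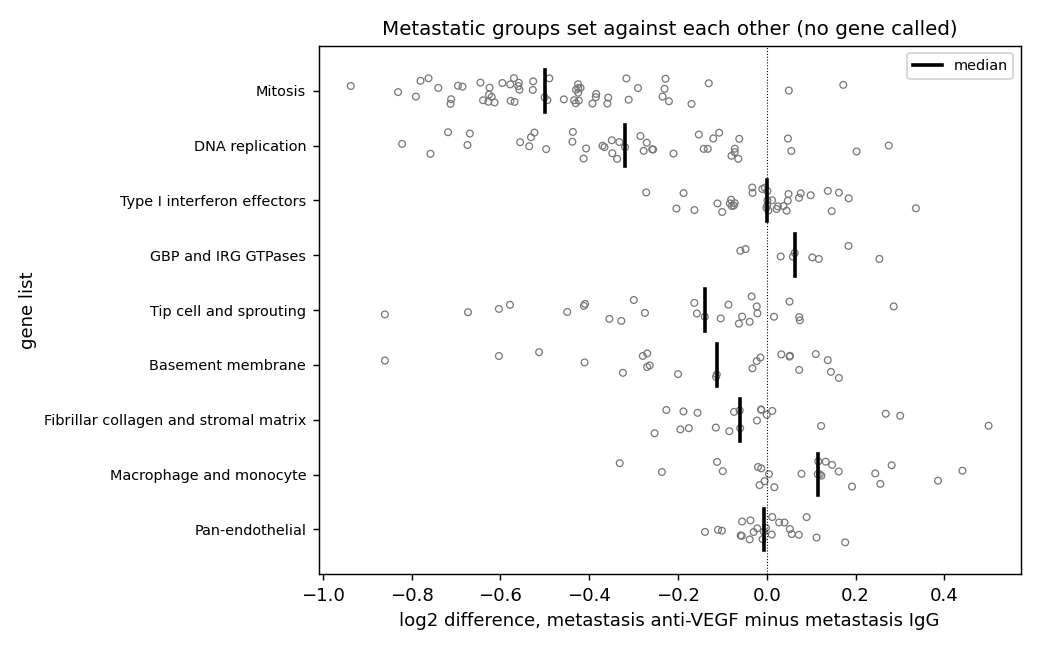
Log2 difference between the metastatic groups, anti-VEGF minus IgG (x axis), for the members of 9 gene lists (y axis), with 1 open point per gene and a black bar at the list median. No gene passed the test. The medians of mitosis (-0.50) and DNA replication (-0.32) lie to the left of those of the interferon effectors (0.00) and the pan-endothelial markers (-0.01).

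Of 10 ligands and receptors of the VEGF pathway itself 2 were called, both higher (20%, against 4.15% of all genes), with a median difference of -0.02. The main receptors Kdr (-0.08 ± 0.07) and Flt1 (-0.03 ± 0.08), and Vegfa (-0.04 ± 0.08), were not called. Nrp2, a co-receptor typical of veins and lymphatic vessels, lay at 11.04, 10.88 and 10.92 in healthy ECs and at 11.58, 11.80 and 11.77 under anti-VEGF metastasis (0.77 ± 0.09). Pgf, a VEGFR1 ligand that B20.4.1.1 is not directed against, lay at 8.70, 8.77 and 8.56 against 8.98, 9.62 and 9.67 (0.75 ± 0.17, adjusted p = 0.0422), and this call was lost without any 1 array but anti-VEGF replicate 1. Of the VEGF target genes chosen by the study, 2 were analyzed here. Nid2, a basement membrane nidogen, lay at 8.14, 7.76 and 7.72 in healthy ECs and at 7.86, 8.16 and 8.33 under anti-VEGF, which overlapped (0.24 ± 0.15, adjusted p = 0.421), and at 8.77, 8.95 and 8.44 in the IgG arrays (-0.60 ± 0.16 for anti-VEGF minus IgG, unadjusted p = 0.00465). Mest, an imprinted gene of the hydrolase family, remained above healthy lung, at 11.19, 11.04 and 11.11 against 11.56, 11.87 and 11.59 (0.56 ± 0.10), beside 11.81, 11.70 and 11.66 in the IgG arrays. It was not called without healthy replicate 2 or 3.

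Of 27 tip cell and sprouting genes, 6 were called higher and 3 lower, so that the list did not move as 1 unit (median 0.21). Higher were Trp53i11 (1.72 ± 0.19), Rgcc, a cell cycle regulator (1.38 ± 0.20), the vasodilator peptide gene Adm (1.17 ± 0.22) and the laminin chain gene Lamb1 (1.08 ± 0.19), with Pgf and Lxn. Lower were Esm1, a secreted proteoglycan of tip cells, and Kcne3, a potassium channel subunit, beside the endothelin receptor gene Ednrb. Esm1 lay at 11.37, 11.86 and 11.74 in healthy ECs, at 10.97, 10.87 and 11.04 under anti-VEGF and at 11.25, 11.76 and 11.60 in the IgG arrays, which overlapped with the healthy ones, and Kcne3 lay at 8.19, 8.25 and 8.11, at 6.97, 7.58 and 7.46 and at 7.98, 7.79 and 7.47. For these 2 genes the anti-VEGF group was the lowest of the 3 by mean. Other classic tip cell genes, Apln (0.24 ± 0.12), Angpt2 (0.06 ± 0.07) and Dll4 (0.11 ± 0.08), were not called. Esm1, Kcne3, Apln, Angpt2 and Dll4 were named after their values were seen. The count of higher genes was 3 without healthy replicate 1 or anti-VEGF replicate 3, and that of lower genes was 0 without healthy replicate 2 and 1 without healthy replicate 3 or anti-VEGF replicate 2. Single calls also rested on few arrays: that of Ednrb held in 1 of the 6 fits without 1 array, Esm1 in 3 and Kcne3 in 5, Adm was lost without healthy replicate 1, healthy replicate 3 or anti-VEGF replicate 3, and Lamb1 without healthy replicate 1, anti-VEGF replicate 2 or anti-VEGF replicate 3. Of 23 genes of the immediate VEGF response, 1 was called, Stc1, a secreted glycoprotein hormone, at 10.28, 10.24 and 10.04 against 9.25, 9.34 and 9.34 (-0.87 ± 0.09, with -0.19 at its other probe set), and of 7 genes of the angiopoietin and Tie system none was called.

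In the activin family Inhba, which encodes the activin A subunit, behaved unlike Inhbb. It lay at 6.92, 7.03 and 7.04 in healthy ECs, at 7.49, 7.67 and 7.48 under anti-VEGF and at 8.72, 8.94 and 8.19 under IgG. The anti-VEGF arrays were above every healthy array (0.55 ± 0.09, adjusted p = 0.00827) and below every IgG array (-1.07 ± 0.18, unadjusted p = 0.000221). The other probe set of Inhba gave 0.01 for the difference from healthy lung, so the rise rests on 1 probe set. Lamb1 lay in a like order, at 8.54, 8.79 and 8.68, at 9.25, 10.06 and 9.94 and at 10.75, 11.01 and 10.07, with anti-VEGF minus IgG at -0.86 ± 0.27. F8, coagulation factor VIII, was the reverse: it was called against healthy lung (9.25, 9.14 and 9.08 against 9.62, 10.15 and 9.99, a difference of 0.76 ± 0.13), while the IgG arrays lay at 9.29, 9.60 and 8.82. The F8 call was lost without healthy replicate 2, healthy replicate 3 or anti-VEGF replicate 3. The glucose transporter gene Slc2a3 had the smallest unadjusted p among genes above IgG, at 8.46, 8.54 and 8.60 under anti-VEGF against 7.65, 7.70 and 8.00 (0.75 ± 0.11, unadjusted p = 9.4e-05), and against healthy lung (7.32, 8.31 and 7.71) it was not called (adjusted p = 0.0794). For Neurl3 and Shank3, next in that order, the anti-VEGF minus IgG differences were 0.63 ± 0.10 and 0.61 ± 0.10, and the differences from healthy lung were -0.11 ± 0.09 and 0.17 ± 0.07.

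Of 28 genes of glycolysis and hypoxia, 10 were called higher and 1 lower (median 0.15), against 4.15% higher and 2.29% lower over all genes. Ankrd37, a target of hypoxia-inducible factors, lay at 11.20, 11.48 and 11.26 in healthy ECs and at 12.93, 12.93 and 12.69 under anti-VEGF metastasis (1.54 ± 0.11). Aldoc, a glycolytic aldolase, lay at 7.45, 7.31 and 7.29 against 8.23, 8.48 and 8.32 (1.00 ± 0.09), and the hypoxia-induced genes Ndrg1 and Bnip3 differed by 0.91 ± 0.12 and 0.76 ± 0.11. Car9 (0.12) and Pgk1 (0.14), other targets of these factors, were not called. The count was 5 without any 1 healthy array and 6 without anti-VEGF replicate 2 or 3. The hypoxia response core ACGTG was present in 20 of 27 members with a window (74.1%), against 26.1% of tested genes. It was present in 6 of the 9 members called higher with a window (66.7%) and in 24.0% of all genes called higher. The core thus marked the list whether called or not. None of 23 respiratory chain genes or 22 ribosome biogenesis genes was called, and 1 of 31 proteasome genes, 1 of 16 sterol synthesis genes and 2 of 21 genes of the unfolded protein response were.

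The called gene of lowest difference was Wif1, a secreted inhibitor of Wnt ligands, at 11.20, 11.69 and 11.25 in healthy ECs and at 10.07, 8.90 and 9.65 under anti-VEGF metastasis (-1.84 ± 0.27, or 0.279 times the healthy level, adjusted p = 0.00659). Sfrp2, another secreted Wnt modulator, was next, at 8.69, 9.15 and 9.11 against 7.13, 7.42 and 7.07 (-1.77 ± 0.14). Axin2, a target of Wnt signaling, lay at 10.23, 10.36 and 10.41 against 9.76, 9.39 and 9.60 (-0.75 ± 0.11). Of 21 Wnt genes, 4 were thus lower and 2 higher, including secreted inhibitors and a target. Wif1 and Sfrp2 are known from fibroblasts of the lung as well as from vessels. Of 14 fibroblast markers 3 were called higher (Col1a1, Col1a2 and Col3a1) and 1 lower, with a median difference of -0.01. The lower one was Inmt, at 12.09, 12.49 and 12.84 against 11.52, 11.31 and 11.57 (-1.01 ± 0.17). The part of such cells in these values was not tested, and in sorted bulk samples fewer cells of a type and less RNA per cell cannot be told apart.

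Cyp1a1, the enzyme induced by the aryl hydrocarbon receptor, lay at 9.75, 10.47 and 10.07 in healthy ECs, at 8.56, 8.14 and 8.73 under anti-VEGF metastasis and at 7.55, 7.86 and 7.58 under IgG. It was called lower than healthy (-1.62 ± 0.20), and the anti-VEGF arrays were above the IgG arrays (0.81 ± 0.16, unadjusted p = 0.000667). Of 17 genes of the pathways of this receptor and of NRF2, 4 were lower (Cyp1a1, Gstm1, Gclc and Srxn1) and 2 higher (Akr1b8 and Keap1). The count of lower genes was 2 without healthy replicate 3, anti-VEGF replicate 1 or anti-VEGF replicate 2, and Keap1 was called in 1 of the 6 fits without 1 array. The remaining genes among the 10 lowest were Olfm2 (-1.55 ± 0.13), the monocarboxylate transporter gene Slc5a12 (-1.36 ± 0.15), the transcription factor gene Sox11 (-1.34 ± 0.17), the phosphatase subunit gene Ppp2r2c (-1.32 ± 0.16, with -0.77 to -0.16 at other probe sets), 9530026P05Rik (-1.29 ± 0.16), the kinesin gene Kif26b (-1.26 ± 0.18) and Slitrk6 (-1.25 ± 0.22).

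Markers of vessel types shifted in part, where 4.15% of all genes were called higher and 2.29% lower. Of 15 arterial genes 3 were called lower and none higher, and these were called with any 1 array left out too. Hey2, a Notch target of arteries, lay at 8.36, 8.92 and 8.59 in healthy ECs and at 7.69, 7.55 and 7.40 under anti-VEGF metastasis (-1.08 ± 0.15), and Bmx, a kinase of arterial ECs, at 10.16, 10.12 and 9.97 against 9.60, 9.40 and 9.45 (-0.60 ± 0.09). Other arterial genes, Gja5 (-0.28), Sox17 (0.01) and Dll4 (0.11), were not called. Of 11 venous genes 4 were higher (Ackr1, Nr2f2, Selp and Nrp2) and 1 lower (Amigo2), and the 4 were also called with any 1 array left out. Nr2f2, the vein-determining transcription factor, lay at 9.98, 10.06 and 10.11 against 10.86, 11.23 and 11.06 (1.00 ± 0.10, with -0.46 to 0.35 at other probe sets), whereas Ephb4 (0.05) and Vwf (0.02) were not called. Of 11 aerocyte markers 1 was higher and 3 lower, a count that was 0 or 1 without any 1 array but anti-VEGF replicate 1, of 11 general capillary markers 1 was lower and of 17 Notch genes 1 was higher and 1 lower. In lists of this size, 1 call in a direction is not read as a shift of the list. Of 20 vasoactive and flow genes 1 was higher and 3 lower. Npr3, the clearance receptor of natriuretic peptides, lay at 12.69, 13.04 and 12.80 against 12.04, 11.62 and 12.09 (-0.93 ± 0.14). Of 16 genes of BMP signaling and Id genes 2 were called higher and 1 lower (median -0.16). Smad1 (0.70 ± 0.07) and Smad5 (0.59 ± 0.09) were higher and the inhibitor Smad6 was lower (-0.63 ± 0.10). Of 13 insulin-like growth factor genes 2 were higher and 2 lower. Irs1, an adaptor of insulin and IGF receptors, lay at 11.03, 11.12 and 11.08 against 10.35, 9.59 and 10.00 (-1.10 ± 0.17), and Igf1 was higher (0.79 ± 0.11).

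Markers of other cell types were measured beside these results because inflammatory, class II and complement genes are also expressed by leukocytes. The mean level of the 24 macrophage and monocyte markers was 8.09, 8.31 and 8.53 in the healthy arrays and 9.26, 9.51 and 9.15 in the anti-VEGF arrays, with a median difference of 0.85 and 15 genes called higher. C1qa, a subunit of complement C1q, lay at 7.07, 7.48 and 7.41 against 9.79, 10.49 and 9.56 (2.63 ± 0.23), Ms4a7 at 6.56, 6.36 and 6.62 against 8.60, 8.94 and 8.44 (2.15 ± 0.14, with 0.31 at its other probe set) and Lyz2 at 10.99, 11.16 and 11.72 against 12.50, 12.59 and 12.26 (1.16 ± 0.18). Adgre1 (0.72 ± 0.22), Cd68 (0.47 ± 0.19) and Marco (0.20), other members of the list, were not called. Differences in the list ran from 0.20 to 2.63. For 20 of the 24 markers every anti-VEGF array lay above every healthy array, against 2512 of 18193 genes tested. No marker is at 0 on an array scale. The mean level of the list was 9.16 to 9.30 in the metastasis IgG arrays. Of 9 neutrophil markers 4 were called higher, S100a8 (1.12 ± 0.20), S100a9 (0.89 ± 0.14), Cxcr2 (0.42 ± 0.09) and Csf3r (0.40 ± 0.09), a count that was 2 without any 1 array other than healthy replicate 1. The part of these cells in the interferon, inflammatory, class II, matrix and GSP58 results was not tested.

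**Figure D5:**
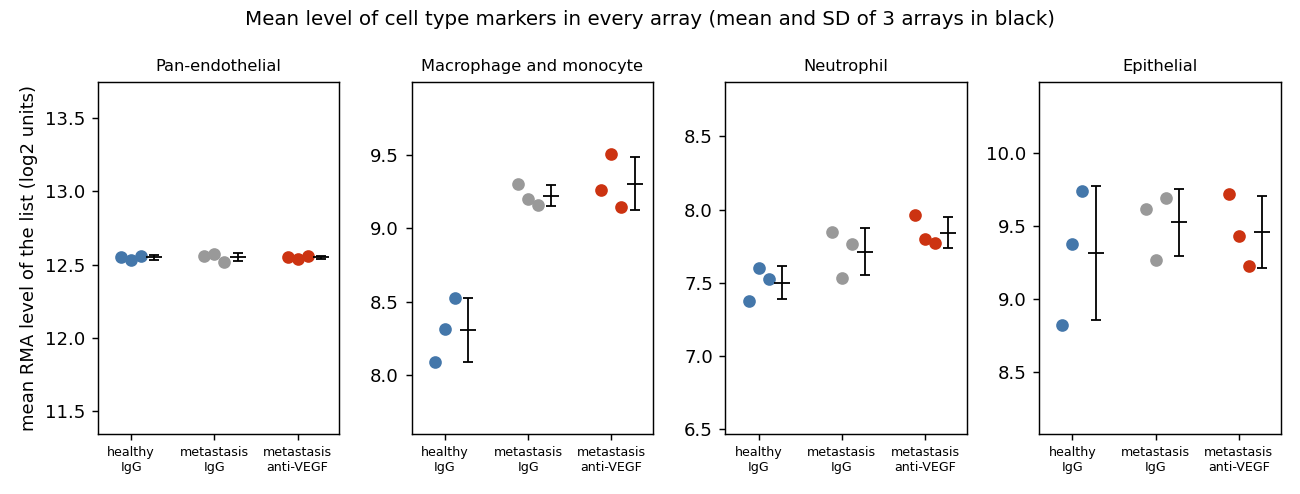
Mean RMA level (log2 units, y axis) of 4 marker lists in every array of the 3 groups, with the mean and SD of 3 arrays in black and the same span of axis in all panels. The macrophage and monocyte list is higher in all metastatic arrays than in the healthy arrays (8.09 to 8.53), and the pan-endothelial list is level in all 9 arrays.

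The counts that follow stand beside 4.15% of all genes called higher and 2.29% lower. None of 16 epithelial, 10 mast cell and basophil or 10 lymphocyte markers was called, but 4 epithelial markers were called higher without healthy replicate 3. The epithelial markers of smallest p were the surfactant genes Sftpb (8.47, 8.62 and 9.30 against 9.82, 9.49 and 9.49, adjusted p = 0.0599) and Sftpd (7.70, 7.86 and 8.80 against 9.32, 9.14 and 8.92, adjusted p = 0.0628), with differences of 0.80 ± 0.21 and 1.00 ± 0.26. Of 13 pericyte and smooth muscle markers 1 was higher, Pdgfrb (CD140b), a gene product sorted against, at 7.34, 7.97 and 8.33 against 8.88, 8.995 and 9.21 (1.15 ± 0.22, with 0.13 at its other probe set), a call lost without healthy replicate 2, anti-VEGF replicate 2 or anti-VEGF replicate 3. In the erythroid list Hbb-b2 (-1.02 ± 0.22) and Alas2 (-0.89 ± 0.12) were lower and Slc4a1 was higher (1.82 ± 0.08), although other probe sets of Slc4a1 gave -0.20 to -0.05 and Hbb-b2 was not called without healthy replicate 2, healthy replicate 3 or anti-VEGF replicate 2. Of 9 platelet markers the integrin genes Itgb3 (0.75 ± 0.08) and Itga2b (0.52 ± 0.07) were higher and the others were not called. Of 6 mesothelial markers 1 was higher, the transcription factor gene Wt1, at 6.06, 6.92 and 6.21 against 7.41, 7.68 and 7.50 (1.14 ± 0.20), a call lost without healthy replicate 3, anti-VEGF replicate 2 or anti-VEGF replicate 3. Of 9 lymphatic markers Pdpn (0.58 ± 0.10) and Nts (0.62 ± 0.13) were higher and Fgl2 was lower (-0.45 ± 0.11), where Nts was called in 2 and Fgl2 in 1 of the 6 fits without 1 array. Of 20 genes of AP-1 and dissociation stress 1 was called, Fosl2 (0.41 ± 0.09), which held in 1 of the 6 fits without 1 array, and the list's median difference was 0.04. The 3′ to 5′ difference of actin probes, a sign of RNA integrity, was 0.609 to 0.620 in healthy and 0.526 to 0.620 in anti-VEGF arrays.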

How the data were processed

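RNA of sorted lung ECs was extracted with the PicoPure kit, amplified and labeled from 1 ng of total RNA with a 3′ IVT kit and hybridized to Affymetrix Mouse Genome 430 2.0 arrays. The authors normalized them by RMA in Chipster 3.8.0, and the deposited values are log2 intensities per probe set. They were used as deposited. RMA fits all 9 arrays together and sets equal distributions, so a shift of all genes would not be seen, and the number of arrays limits the precision. Probe sets naming 1 gene gave 18193 genes, 9010 of them with several probe sets, where the one with the highest mean over 9 arrays was kept. Groups came from the labels. For each comparison a limma 3.58.1 model (R 4.3.3) of the 6 arrays concerned was made with lmFit and eBayes and without a block. The call threshold was an adjusted p of 0.05 (Benjamini-Hochberg). The method was tested on simulated data.

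Gene lists (58, with 1200 of 1277 written members measured) were described by counts and medians. The comparison, its gene lists and the alternatives were chosen with earlier results of these data known. Named genes were the 10 highest and 10 lowest called without overlap, the niche factors and VEGF targets, up to 4 called members of largest difference per list (or 2 of smallest p where none was called) and the 5 genes of smallest p per direction in anti-VEGF against IgG, with other genes marked in the text or named as list members. Other probe sets are quoted where they disagreed in sign or by more than 1 log2 unit, and for Psmb8, Inhba, Ccne1, Stc1 and Mcm5. Numbered replicates were not treated as pairs. Promoters are RefSeq windows for 14452 of the tested genes. No healthy anti-VEGF mice were analyzed here.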

Additional observations from a re-analysis of the deposited data

Results flagged for a closer look

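Among 9160 probe sets that name no gene here and stood outside the gene comparison, 86 were called higher and 56 lower in anti-VEGF metastasis than in healthy lung (limma, adjusted p under 0.05 over these probe sets). They were picked out because they carry a signal in data that the gene comparison does not use. The largest differences among them, 5.12 ± 0.10, 4.71 ± 0.13 and 4.39 ± 0.12 on the log2 scale, exceeded that of Mycn (4.31).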

How the results depend on the processing

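The main count of called genes was 1172 (755 higher and 417 lower). Testing every probe set on its own gave 1891 (1159 higher and 732 lower), trend and robust settings of eBayes gave 1848 (775 lower), and the study's thresholds (log2 change over 0.75, p under 0.05, adjusted p under 0.25) gave 430 (336 higher and 94 lower). Leaving out 1 array gave 645 to 1139 calls, 458 to 750 higher and 177 to 389 lower. The cause of these shifts was not tested, apart from the number of features tested, the thresholds and the number of arrays, which differ by construction. The fit of all 9 arrays, the filter on dim genes, the mean of probe sets, the probe sets without a shared suffix, both scalings and array weights stayed within 1.5 times in both directions. With the replicate number as a block, 841 genes were called (575 higher and 266 lower). The labels give no pairing, and the deviations of same-numbered healthy and anti-VEGF arrays correlated at 0.014, -0.039 and -0.022. These values show no sign of pairing, but they cannot exclude that same-numbered samples were handled together. Anti-VEGF against IgG metastasis gave 0 calls under every alternative run (all 9 arrays, replicate block, each array left out). Slc4a1 turned to -0.0522 with probe sets without a shared suffix. Of the named genes 153 were called, and 113 of these were called in all 6 fits without 1 array. With 3 arrays per group, an exact permutation test of 1 value cannot go below 0.1.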
